A study of Mus musculus with 36 samples.

Results

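Ligature-induced experimental periodontitis was compared with no ligature in the epididymal white adipose tissue (eWAT) of CCL19-KI mice fed a 40% high-fat diet (HFD). The comparison used 6 of the 36 RNA-seq libraries of the series. Its members were taken by their labels alone: 3 libraries labelled as CCL19-KI, 40% HFD and 2 weeks of ligature, and 3 with the same genotype and diet and no ligature in the label. The series crossed WT and CCL19-KI mice with a normal diet (ND), a 40% HFD or a 60% HFD, with and without ligature, which gave 12 groups of 3 male mice. In the CCL19-KI line, also written Adipoq-CCL19-KI, the mouse Ccl19 gene had been inserted at the Adipoq locus by genome editing without loss of Adipoq, and the line was kept homozygous, with founders crossed to C57BL/6J and the strain labelled C57BL/6. Both groups compared therefore carried the insertion, which places Ccl19 under a locus active in adipocytes. The diets began at 6 weeks of age, silk thread was tied to the left and right maxillary second molars at 14 weeks, and tissue was taken at 16 weeks after 10 weeks of feeding. The lymph nodes had been removed from the fat pad, and each library came from a separate mouse, so that p-values measure the spread between mice. What the unligatured mice received in place of the thread is not given in the sources used here. The series' design text mentions ligature for every group, and the groups here follow the labels of the single samples.

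As background, a ligature around a molar gathers oral bacteria at the gum and causes local inflammation and loss of alveolar bone, while the epididymal fat pad lies far from that site. CCL19 is a chemokine that draws CCR7-bearing dendritic cells and lymphocytes. Expanding fat depots hold adipocytes, progenitors and fibroblasts that lay down collagen, vessels, a mesothelial cover and macrophages, and bulk RNA mixes all of them, so that fewer cells of a type and less RNA per cell cannot be told apart.

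Values are gene-level CPM as normalized by the authors, and the 6 libraries summed to between 937499 and 1123296. Whole reads could be recovered from them, and the 3 unligatured libraries held 16728864, 16797287 and 16094230 reads. The 3 ligatured libraries held 12966362, 15146500 and 12824995 reads. All ligatured libraries were therefore shallower than all unligatured libraries, and the part of depth in the results was not tested. A single read was worth 0.0608, 0.0669 and 0.0627 CPM without ligature and 0.0752, 0.0707 and 0.0731 CPM with it. The 10 most abundant genes took 20.1%, 18.2% and 17.5% of the reads without ligature and 16.5%, 15.3% and 16.6% with it, again without overlap. The 6 libraries differed from each other by far more than sampling noise: the lowest chi-square per degree of freedom between a pair was 29.2. None was counted as a repeat of another.

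The genotype labels were first checked with the inserted gene, set beside WT mice fed the same diet. Ccl19 (chr4:42754525-42756577, minus strand, GRCm38) measured 27.5, 14.4 and 18.6 CPM in the unligatured mice and 20.8, 12.7 and 34.6 CPM in the ligatured mice. In WT mice fed the 40% HFD it measured 0.826, 2.96 and 2.96 CPM without and 1.68, 0.633 and 2.01 CPM with ligature, so all 6 CCL19-KI mice lay above all 6 WT mice. The ligatured and unligatured CCL19-KI mice overlapped, with the highest and the lowest value both among the ligatured mice, and the log2 difference was 0.10 ± 0.61 (SE, n = 3 mice a group). Its sign turned without unligatured mouse 2 (-0.10) or ligatured mouse 3 (-0.24). Here and below, an SE comes from 1 fit of all 12 groups and is not the spread of the 6 mice compared alone. Gm2564, a near-identical copy of Ccl19 on the same chromosome that can share its reads, measured 57.6, 30.8 and 43.8 CPM without and 56.4, 41.3 and 108 CPM with ligature, so the level of Ccl19 itself is uncertain. In the WT mice Gm2564 measured 0, 0 and 0 CPM without and 0, 0 and 0.160 CPM with ligature. Adipoq, which encodes adiponectin, measured 1126, 647 and 584 CPM without and 973, 572 and 1246 CPM with ligature. Its groups overlapped as well, with a log2 difference of 0.23 ± 0.50 that was -0.01 without ligatured mouse 3. All 20 adipocyte identity markers were detected in the tested range and summed to 47700.5, 33694 and 30233 CPM without and 45610.0, 32469.8 and 49109 CPM with ligature. The most abundant was Car3, a carbonic anhydrase of mature adipocytes, and the label of fat tissue was met in all 6 libraries.

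Markers of other tissues varied widely between mice, and the groups overlapped. The 25 hepatocyte genes, led by Alb, summed to 12032, 62367 and 36814 CPM in the unligatured mice and 14499.7, 63878 and 6277 CPM in the ligatured mice. The highest values belonged to mouse 2 of each group and the lowest to ligatured mouse 3. All 25 genes had a negative log2 difference, with a median of -0.84, but none passed the test or separated the groups, and the median lay at -1.83 to 0.03 with 1 mouse left out at a time. Kidney tubule genes, led by Kap, summed to 11.8, 263 and 63.3 CPM without and 29.2, 39.4 and 19.7 CPM with ligature (median -0.86 over 8 genes tested, of 15, and -1.51 to 0.03 with 1 mouse left out). Erythrocyte genes, led by Hbb-bs, summed to 418, 3103 and 1222 CPM without and 513, 685 and 138 CPM with ligature (median -1.64 over 5 genes tested, of 8, and -2.35 to -0.85 with 1 mouse left out). Unligatured mouse 2 stood highest in both lists, and the groups overlapped in both. None of the 20 epididymis genes reached the level for testing, and 9, among them Lcn5, Cst8 and Defb22, were at 0 in all 6 libraries. The part of these other cell types in the results below was not tested, except where a fit with the hepatocyte level as a covariate is given.

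Few genes differed between the groups by the tests used. Of 15185 genes tested, 51 (0.336%) were higher and 83 (0.547%) were lower in the ligatured mice and counted as differentially expressed genes (DEGs), defined here as an unadjusted p no higher than 0.05 combined with a ratio ≥ 1.5 or ≤ 0.67. That made 134 DEGs (0.882%), 114 of them protein-coding, and in 88 the groups did not overlap. No gene (0%) passed an adjusted p of 0.05 with limma, whose smallest adjusted p was 1.00, and edgeR on the recovered reads also gave 0. With sample quality weights, a planned limma fit that did not converge fully, 2138 genes passed and DEGs numbered 429 and 1004. With gene-by-gene weights, added after the data were seen, 222 passed and DEGs numbered 298 and 626. At an unadjusted p under 0.05, limma gave 267 genes (1.76%) and edgeR gave 242. These tests share 1 estimate of spread over all 12 groups, and the median SD of log2 values was 0.198 and 0.219 in the groups without and with ligature and up to 0.367 elsewhere. Fitted alone, the 6 libraries gave 508 genes at an unadjusted p under 0.05 and a smallest adjusted p of 0.298 in limma. Every gene called a DEG below is thus a call without correction for the number of genes. The groups did not overlap in 1283 genes (8.45%), with all ligatured mice above in 760 (5%) and below in 523 (3.44%). Full separation of 3 against 3 mice has an exact two-sided permutation p of 0.1, and 8.45% is no higher a share than that. Separate groups are therefore weak evidence for any single gene below. The limma share of 1.76% at an unadjusted p under 0.05 was likewise below that cutoff. The median log2 difference of all genes tested was 0.00, and 50.7% of genes were positive.

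Single mice carried much of these counts. Higher DEGs numbered 114 without unligatured mouse 1, 27 without unligatured mouse 2, 31 without unligatured mouse 3, 25 without ligatured mouse 1 and 110 without ligatured mouse 2. Lower DEGs numbered 142 without unligatured mouse 2, 43 without unligatured mouse 3, 51 without ligatured mouse 1 and 148 without ligatured mouse 2. The balance of directions also moved with the scaling: 38.1% of DEGs were higher with the values as deposited and 56.3% after quantile normalization.

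**Figure D1:**
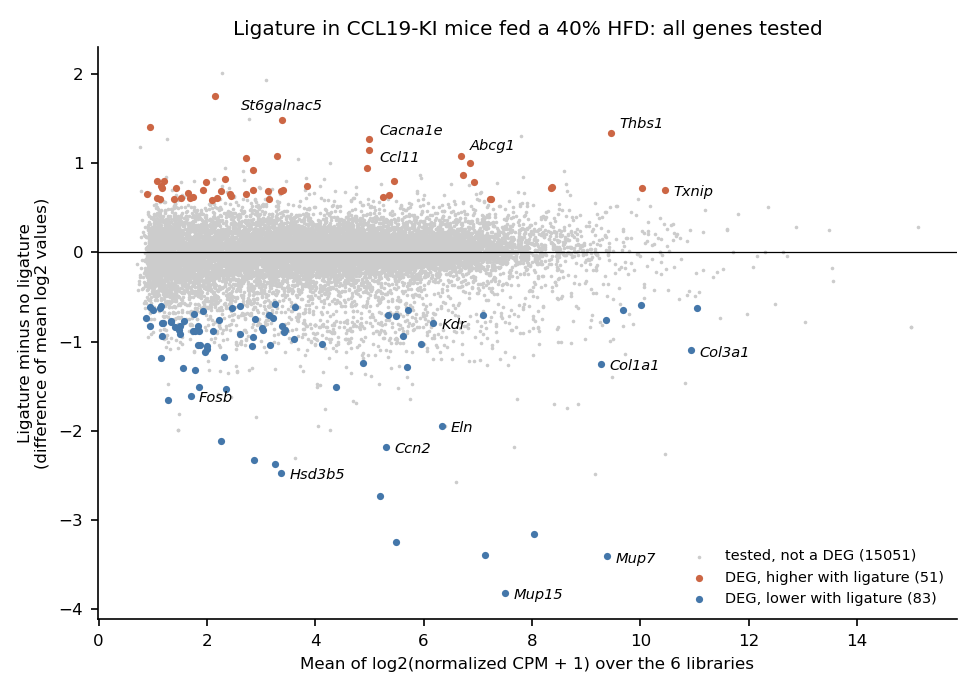
Each point is a gene tested. The horizontal axis is the mean log2(CPM + 1) over the 6 mice and the vertical axis is the log2 difference, ligature minus no ligature. Orange points are the 51 higher DEGs and blue points the 83 lower DEGs. The Mup genes lie lowest, at down to -3.82, and the abundant DEGs include Col3a1, Txnip and Thbs1.

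Collagen genes leaned lower in the ligatured mice. Of 27 collagen genes tested, 26 had a negative log2 difference, 4 were lower DEGs (0.547% of all genes tested were) and none was a higher DEG. The list's median was -0.46, against 0.00 over all genes, and it ranged over -0.63 to -0.31 with 1 mouse left out at a time. It was -0.42 after quantile normalization. The list's sum was 12912, 7852 and 12419 CPM without and 7931, 5250 and 7820 CPM with ligature, with overlap. The mean log2 value of the list overlapped as well. Col3a1, a chain of the fibrils that surround adipocytes and vessels (chr1:45311538-45349706, plus strand), measured 3915, 1649 and 3659 CPM without ligature and 1442, 927 and 1802 CPM with it. The values overlapped only because unligatured mouse 2 lay under ligatured mouse 3, and the log2 difference was -1.10 ± 0.46. Its call was lost without unligatured mouse 1 (-0.87), unligatured mouse 3 (-0.92) or ligatured mouse 2 (-0.83), and also after quantile normalization. Col1a1, the main chain of type I collagen (chr11:94936224-94953042, plus strand), measured 1169, 511 and 1432 CPM without and 440.4, 307 and 467 CPM with ligature. All ligatured mice lay below all unligatured mice, with a log2 difference of -1.25 ± 0.48. This call was lost without unligatured mouse 1 (-1.10), unligatured mouse 3 (-0.96) or ligatured mouse 2 (-1.06).

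The other collagen calls were basement membrane chains. Col4a5 measured 119.9, 48.3 and 115 CPM without and 48.7, 23.6 and 66.3 CPM with ligature, with overlap, and differed by -1.02 ± 0.42. Col4a3 measured 6.99, 9.83 and 14.6 CPM without and 5.12, 3.61 and 6.94 CPM with ligature, without overlap, and differed by -0.86 ± 0.39. With 1 mouse left out at a time, Col4a5 was called in 3 of 6 fits and Col4a3 in 2, at differences of -1.45 to -0.61 and -1.10 to -0.62. Col4a5 also lost its call in the fit of the 6 libraries, and Col4a3 in the fit of the 4 groups fed a 40% HFD. Unligatured mouse 2 had the lowest value of its group in most collagen genes, as the plot of collagen genes shows.

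**Figure D2:**
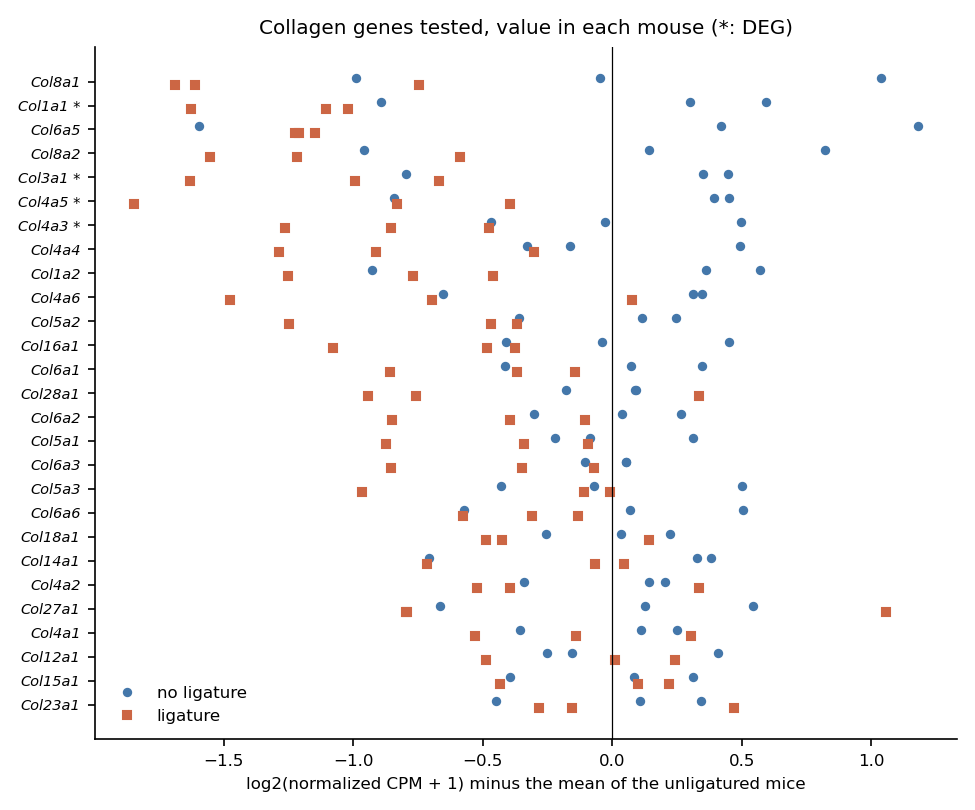
Each row is a collagen gene tested and each point a mouse, drawn as log2(CPM + 1) minus the mean of the unligatured mice. Circles are unligatured and squares ligatured mice, and an asterisk marks the 4 DEGs. Genes are ordered by their difference, which was negative in 26 of 27.

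Other genes of the matrix moved both ways, and large falls lay among them. Ccn2, a secreted matricellular protein induced by TGF-beta and mechanical load (chr10:24595442-24598683, plus strand), measured 60.5, 55.6 and 172 CPM without and 13.7, 13.9 and 28.7 CPM with ligature. Even the highest ligatured mouse, mouse 3, lay below the lowest unligatured mouse. The log2 difference was -2.18 ± 0.58, called also by edgeR and in all 6 fits with 1 mouse left out (-2.52 to -1.66). Eln, which encodes elastin (chr5:134702593-134747323, minus strand), measured 207, 54.0 and 347 CPM without and 47.5, 32.5 and 42.0 CPM with ligature. The groups did not overlap, but unligatured mouse 2 lay close to the ligatured mice, and the difference was -1.94 ± 0.67. Its call was lost without unligatured mouse 3 (-1.38), and also in the fit of the 4 groups fed a 40% HFD. Thbs1 encodes thrombospondin-1, a matricellular protein that can activate latent TGF-beta, and it went the other way (chr2:118111876-118127133, plus strand). It measured 743, 392 and 293 CPM without and 928, 823 and 1825 CPM with ligature. Ligatured mouse 3 was the highest and the groups did not overlap, with a difference of 1.34 ± 0.50 that was not called without unligatured mouse 3 (1.05) or ligatured mouse 3 (0.99).

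Thbs2, named after its values were seen, measured 175, 133 and 120.5 CPM without and 603, 385 and 185 CPM with ligature. Its groups did not overlap, but its difference of 1.31 ± 0.69 did not pass the DEG criteria. It was called in edgeR, in the fit of the 6 libraries, in the fit of the 4 groups fed a 40% HFD, with sample quality weights and with gene-by-gene weights, and also without ligatured mouse 3 (1.77). Of 26 matrix remodelling genes tested, 1 was a higher DEG (Thbs1) and 1 a lower DEG (Eln), against 0.336% and 0.547% of all genes. The median was -0.45 (-0.85 to -0.09 with 1 mouse left out). Of 25 TGF-beta signalling genes tested, Ccn2 alone was a DEG (lower, as were 0.547% of all genes), and the median was 0.04 (-0.13 to 0.14). Among 23 progenitor and fibroblast markers tested, Col1a1 and Col3a1 were lower DEGs, and both were already counted among the collagen genes above. Pdgfra, the receptor that marks adipose progenitors, was a higher DEG. Such calls were made in 0.547% and 0.336% of all genes. Of the markers, 3 lay lower in all ligatured mice, against 3.44% of all genes. Pdgfra measured 106, 52.8 and 82.2 CPM without and 160.1, 93.3 and 192 CPM with ligature. The groups overlapped, the difference was 0.87 ± 0.42, and the call was lost without unligatured mouse 2 (0.60), unligatured mouse 3 (0.92), ligatured mouse 1 (0.79) or ligatured mouse 3 (0.66). It was also lost after quantile normalization, in edgeR, in the fit of the 4 groups fed a 40% HFD and with the hepatocyte covariate. The median of that list was -0.23 (-0.41 to 0.00 with 1 mouse left out), and its sum, led by Gsn, was 15523, 8002 and 12768 CPM without and 12412, 8154 and 13657 CPM with ligature.

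Fhl2 and Lmcd1, which encode LIM-domain cofactors of transcription, were lower DEGs chosen after their values were seen. Fhl2 measured 6.99, 3.28 and 11.4 CPM without and 2.48, 2.33 and 2.19 CPM with ligature. The groups did not overlap, and the difference was -1.17 ± 0.51, with the call lost without unligatured mouse 1 (-1.12), unligatured mouse 3 (-0.81), ligatured mouse 2 (-1.17) or ligatured mouse 3 (-1.14) and in the fit of the 4 groups fed a 40% HFD. Lmcd1 measured 4.74, 3.28 and 3.89 CPM without and 2.03, 1.48 and 1.54 CPM with ligature. All its ligatured mice lay below, and the difference of -0.88 ± 0.34 was lost as a call without unligatured mouse 1 (-0.77) and with a pseudocount of 5.

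Promoter windows of 300 bases, from RefSeq on GRCm38.p6, were matched to the DEGs by symbol: 56 windows of 49 lower DEGs and 35 windows of 31 higher DEGs. Other DEGs had no matched window and are not covered, among them Ccn2, Col1a1, Eln, Thbs1, Ccl11, Abcg1 and Phlda1. In all, 9 motifs were looked at on both strands after the values were seen, and windows with 2 of them are printed below. The CArG box, the site of serum response factor, occurred in 4 windows of lower DEGs (7.14%), in 0 of higher DEGs and in 1.63% of all 32851 windows. The 4 windows belong to 3 of the 49 genes, since Fhl2 has 2 of them. GGAATG, the core bound by TEAD factors, occurred in 26.8% of windows of lower DEGs, 22.9% of windows of higher DEGs and 14.7% of all windows. Several Mup windows are near-copies that each hold GGAATG, so the windows are not independent. The other 7 motifs follow as shares of lower DEG, higher DEG and all windows. TGACTCA was in 7.14%, 0% and 5.2%. CAGACA was in 16.1%, 20% and 21%. TATAAA was in 8.93%, 11.4% and 13.6%. GTCTAGAC was in 0%, 0% and 0.213%. CACGTG was in 7.14%, 5.71% and 7.15%. CCAAT was in 41.1%, 42.9% and 37.4%. TGACGTCA was in 3.57%, 2.86% and 1.79%. No test was run on these shares, the number of windows was small, and a match does not show that a factor was bound. The Lmcd1 window and 1 of the 2 Fhl2 windows with a CArG box, and that of Col3a1 with GGAATG (read as CATTCC on the printed strand), are shown 5′ to 3′ with the motif in capitals. Fhl2 lies on the minus strand and the others on the plus strand.
Fhl2 chr1:43163912-43164211: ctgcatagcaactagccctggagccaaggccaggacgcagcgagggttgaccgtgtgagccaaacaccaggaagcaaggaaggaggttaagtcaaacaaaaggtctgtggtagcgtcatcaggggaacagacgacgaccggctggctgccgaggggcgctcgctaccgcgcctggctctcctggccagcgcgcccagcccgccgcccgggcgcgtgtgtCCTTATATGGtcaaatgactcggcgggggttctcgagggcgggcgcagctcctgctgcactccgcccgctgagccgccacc
Lmcd1 chr6:112273508-112273807: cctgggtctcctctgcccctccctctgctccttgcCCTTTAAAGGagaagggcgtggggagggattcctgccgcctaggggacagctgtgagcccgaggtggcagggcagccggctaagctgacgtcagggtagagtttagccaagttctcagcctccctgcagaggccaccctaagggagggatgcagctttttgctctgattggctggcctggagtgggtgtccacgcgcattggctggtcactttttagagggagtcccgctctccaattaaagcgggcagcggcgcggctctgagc
Col3a1 chr1:45311288-45311587: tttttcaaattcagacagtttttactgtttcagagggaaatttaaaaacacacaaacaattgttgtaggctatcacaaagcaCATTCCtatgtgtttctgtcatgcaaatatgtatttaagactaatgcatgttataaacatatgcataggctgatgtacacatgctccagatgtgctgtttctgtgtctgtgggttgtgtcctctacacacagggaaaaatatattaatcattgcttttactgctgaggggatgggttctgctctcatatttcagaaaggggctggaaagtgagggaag

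Among the 12 largest rises with separate groups, genes of several functions stood side by side. Ccl11 encodes eotaxin, the chemokine that attracts eosinophils (chr11:82057823-82062955, plus strand), and measured 23.1, 16.5 and 22.1 CPM without and 60.2, 40.6 and 40.9 CPM with ligature. The lowest ligatured mouse lay well above the highest unligatured mouse. Its difference was 1.15 ± 0.37, called by edgeR and in all 6 fits with 1 mouse left out (0.97 to 1.25). Abcg1, a cholesterol exporter of macrophages and adipocytes (chr17:31057675-31117988, plus strand), measured 92.0, 61.3 and 60.9 CPM without and 184, 161 and 113 CPM with ligature. Its groups were apart, and the difference of 1.08 ± 0.40 was called in all 6 such fits. St6galnac5, a sialyltransferase, measured 7.47, 4.88 and 4.01 CPM without and 16.6, 13.5 and 20.2 CPM with ligature. Again all ligatured mice were higher, by 1.48 ± 0.46, and the call held in all 6 fits. Cacna1e, a voltage-gated calcium channel subunit, measured 22.5, 18.2 and 18.1 CPM without and 79.2, 48.8 and 29.1 CPM with ligature. Ligatured mouse 1 was the highest and the groups did not overlap, at 1.27 ± 0.50. The call was lost only without ligatured mouse 1 (0.92).

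The rest of the 12 were Gm9803 (1.75), Rab11b-ps2 (1.41), Thbs1, Adamtsl3 (1.08), Dmrt2 (0.94), Gabrr2 (0.82), Tmem120b (0.80) and Gm15931 (0.80), with log2 differences in brackets. Gm9803 was listed at 0 in unligatured mouse 2, and Rab11b-ps2 at 0 in unligatured mice 1 and 2. Rab11b-ps2 is a pseudogene that can share reads with its parent gene, which makes its value uncertain. Between 2 and 5 of the 6 fits with 1 mouse left out kept these calls. Among the alternatives, Gm9803 lost its call in edgeR, and Rab11b-ps2 with a pseudocount of 5 and in edgeR. Gabrr2 lost it with a pseudocount of 0.1, with a pseudocount of 5, in edgeR and in the fit of the 4 groups fed a 40% HFD. Tmem120b lost it after quantile normalization, in edgeR, in the fit of the 4 groups fed a 40% HFD and with the hepatocyte covariate (0.73). Gm15931 lost it with a pseudocount of 5. Txnip, which restrains glucose uptake and was chosen after its values were seen, was among the most abundant higher DEGs. It measured 1435, 955 and 988 CPM without and 2061, 1503 and 1873 CPM with ligature. The groups did not overlap, and its difference of 0.70 ± 0.23 was called in all 6 such fits.

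**Figure D3:**
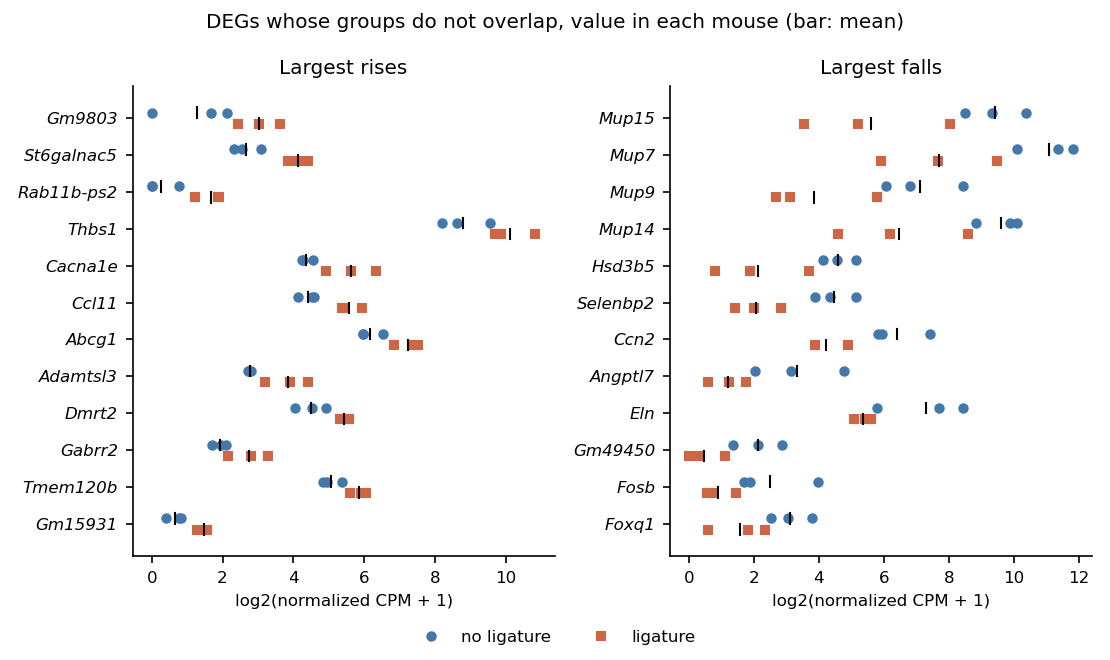
Points show log2(CPM + 1) in each mouse for the 12 largest rises (left) and the 12 largest falls (right) among DEGs whose groups did not overlap. Blue circles are unligatured and orange squares ligatured mice, and a black bar is the group mean. The choice of genes fixes the separation of the groups.

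Adipocyte genes leaned higher. Of 20 adipocyte identity genes, 17 had a positive difference, none was a DEG and in none were the groups apart (median 0.33, 0.16 to 0.51 with 1 mouse left out). Of 18 lipolysis and lipid droplet genes, 14 were positive (median 0.38, 0.26 to 0.51 with 1 mouse left out). Of 20 insulin signalling genes, 19 were positive and none was a DEG (median 0.25, 0.12 to 0.35 with 1 mouse left out). These medians are to be read against 0.00 over all genes tested. Lists of fatty acid uptake and triglyceride synthesis (median 0.09), de novo lipogenesis (-0.07), fatty acid oxidation (-0.03), thermogenesis (-0.08), cholesterol synthesis (-0.08) and fat expansion (0.20) held no DEG. The 56 nuclear genes of oxidative phosphorylation also held none, at a median of -0.08 with 45 negative.

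Macrophage genes also leaned higher and none of them was a DEG. Of 20 macrophage genes, 18 were positive (median 0.33), and their sum was 2669, 1409.9 and 2047 CPM without and 2647, 2064 and 2498 CPM with ligature, led by Lyz2. Leaving out 1 mouse at a time gave medians of 0.05 to 0.58. The lipid-associated macrophage list had a median of 0.10 over 17 genes (-0.21 to 0.37). Spp1, which encodes osteopontin, measured 1.70, 10.6 and 10.0 CPM without and 8.35, 28.0 and 1.02 CPM with ligature. Ligatured mouse 2 was the highest and ligatured mouse 3 the lowest of all 6, the difference was 0.22 ± 0.87, and its sign turned without unligatured mouse 1 (-0.47) or ligatured mouse 2 (-0.69). Gpnmb, another gene of lipid-laden macrophages, measured 42.0, 63.1 and 48.9 CPM without and 103, 256 and 18.6 CPM with ligature. The same mice marked its extremes, and the difference of 0.65 ± 1.00 was -0.19 without ligatured mouse 2.

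The other eWAT genes on the study's list that could be tested were Atp6v0d2 (0.51), Cyp2b9 (1.04), Cyp2a22 (0.25), Onecut1 (-1.99), Acot3 (0.58), Kap (-0.97), Srp54b (0.09) and Ccl2 (-0.22), given as log2 differences. None was a DEG with all 6 mice, and the groups overlapped in each. Onecut1 ranged from -3.23 to -0.84 with 1 mouse left out and became a lower DEG without ligatured mouse 2. Cyp2b9 ranged from -0.22 to 2.47 and became a higher DEG without ligatured mouse 3. The study named these genes with the present mice among its samples. Tnf, Il1b and Ccr7 lay under the level for testing, at no more than 20 reads in any of the 6 libraries.

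Further immune lists held few DEGs. Among 11 CC chemokine genes tested, Ccl11 was the only DEG (median -0.11). It was higher, as were 0.336% of all genes tested. Orm3, an orosomucoid with close paralogs that make its value uncertain, was the only DEG of 24 acute phase genes, against the same 0.336%. It measured 4.19, 2.74 and 1.82 CPM without and 5.19, 3.82 and 6.65 CPM with ligature, with overlap, and differed by 0.69 ± 0.33. Its call was lost without unligatured mouse 2 (0.68), unligatured mouse 3 (0.47), ligatured mouse 1 (0.68) or ligatured mouse 3 (0.52). The call was also lost with a pseudocount of 0.1, with a pseudocount of 5, without the filter, with median-of-ratios scaling and in edgeR. The fit of the 4 groups fed a 40% HFD and that with the hepatocyte covariate (0.65) lost it too. The list's median was -0.59 with 20 genes negative, but it was -0.07 with the hepatocyte covariate and -0.79 to -0.06 with 1 mouse left out. Many acute phase genes are also hepatocyte genes. Lists with no DEG were CXC chemokines (median -0.18), TNF, IL-1 and IL-6 (0.10), Toll-like receptors (0.16), MHC class II (0.10), interferon-stimulated genes (-0.01) and complement (-0.20). Markers of dendritic cells (0.12), T and NK cells (0.04), B cells (-0.32, -0.61 to -0.02 with 1 mouse left out) and neutrophils (0.16) held none either. Of 43 lysosome genes, 33 were positive and 8 lay higher in all ligatured mice, as did 5% of all genes tested, at a median of 0.09 and with no DEG.

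Endothelial and cell division genes leaned lower. Of 28 endothelial genes, 20 were negative, 6 lay lower in all ligatured mice (3.44% of all genes did), and Kdr and Tie1 were lower DEGs, a call made in 0.547% of all genes (median -0.25, -0.38 to -0.08 with 1 mouse left out). Their sum, led by Rgcc, was 913, 867 and 813 CPM without and 897, 1014 and 752 CPM with ligature, with overlap. Kdr, the main VEGF receptor of vessels, measured 86.1, 82.9 and 115 CPM without and 54.3, 66.5 and 43.3 CPM with ligature. Every ligatured mouse was lower, the difference was -0.79 ± 0.29, and the call was lost without unligatured mouse 3 (-0.64) or ligatured mouse 3 (-0.63). Tie1, an endothelial receptor kinase, measured 10.1, 19.3 and 12.9 CPM without and 8.20, 9.33 and 4.24 CPM with ligature. The groups were apart, with ligatured mouse 3 lowest, at -0.89 ± 0.39, and the call was lost without unligatured mouse 2 (-0.65) or ligatured mouse 3 (-0.59). Of 30 proliferation genes, 25 were negative and 9 lay lower in all ligatured mice, against 3.44% of all genes. The median difference was -0.29 (-0.46 to -0.20 with 1 mouse left out), and the mean log2 value of the list was lower in every ligatured mouse. The list's sum, led by Pcna, overlapped instead, at 249, 195 and 212 CPM without and 191, 197 and 180 CPM with ligature. Ccnb1, the cyclin of mitotic entry, was the only DEG. It measured 3.34, 2.41 and 2.95 CPM without and 1.35, 1.06 and 1.46 CPM with ligature, without overlap. Its difference of -0.76 ± 0.37 was called in 0 of the 6 fits with 1 mouse left out (-0.86 to -0.68). The call was also lost with a pseudocount of 5 (-0.33) and with the hepatocyte covariate, where the difference stayed at -0.76.

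Genes of stress and early response leaned the same way. Of 28 unfolded protein response genes, 20 were negative, 5 lay lower in all ligatured mice and none was a DEG (median -0.19, -0.30 to -0.13 with 1 mouse left out). Of all genes tested, 49.3% were negative and 3.44% lay lower in all ligatured mice. Of 16 heat shock genes, 15 were negative with no DEG (median -0.18, -0.33 to -0.05 with 1 mouse left out). Of 26 immediate early genes, 19 were negative and Fosb was a lower DEG, a call made in 0.547% of all genes. The list's median was -0.25 (-0.34 to -0.12 with 1 mouse left out). Fosb, a subunit of the AP-1 factor, measured 14.6, 2.21 and 2.63 CPM without and 0.451, 1.70 and 0.658 CPM with ligature. Unligatured mouse 1 stood far above the rest, the groups did not overlap, and the difference was -1.60 ± 0.77. The call was lost without unligatured mouse 1 (-0.87), ligatured mouse 1 (-1.42) or ligatured mouse 3 (-1.52), and also with a pseudocount of 5 and in the fit of the 4 groups fed a 40% HFD. Phlda1, chosen after its values were seen, measured 22.6, 67.3 and 25.7 CPM without and 10.2, 19.1 and 7.24 CPM with ligature. It was lower in every ligatured mouse, by -1.51 ± 0.53, and was not called without unligatured mouse 2 (-1.03).

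The largest falls belonged to genes that are typical of the male liver. Mup7 encodes a major urinary protein, a pheromone carrier secreted by hepatocytes under male growth hormone rhythms (chr4:60066469-60070475, minus strand). It measured 1093, 3623 and 2627 CPM without and 59.1, 713 and 203 CPM with ligature. The groups did not overlap, although both spread widely, and the difference was -3.41 ± 1.61. Of 22 Mup genes, a family grouped after its values were seen, 18 were tested, all 18 were negative and 6 were lower DEGs, against 0.547% of all genes (median -2.28, -3.18 to -1.62 with 1 mouse left out). Mup15 (-3.82), Mup9 (-3.24) and Mup14 (-3.15) were also among the 12 largest falls. These genes are near-identical copies whose reads cannot be assigned with confidence, and of the 6 edgeR called Mup9 alone. Mup7 was called in 2, Mup15 in 4, Mup9 in 4 and Mup14 in 2 of the 6 fits with 1 mouse left out. Mup7 also lost its call with a pseudocount of 0.1, after quantile normalization and in edgeR, and Mup14 with a pseudocount of 0.1 and in edgeR.

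The hepatocyte list was lower too, by the median of -0.84 given above, with overlap. Set against Alb in the same library, the summed Mup level was 1.67, 1.21 and 1.16 per unit of Alb without ligature and 0.336, 0.523 and 0.888 with it, and the groups did not overlap. With the hepatocyte level as a covariate the Mup median was -1.48. The hepatocyte list itself holds Mup3 and Mup20, so this covariate is not independent of the Mup genes. Hsd3b5, a steroid enzyme of the male liver, measured 16.3, 34.1 and 22.3 CPM without and 0.752, 11.9 and 2.70 CPM with ligature. All ligatured mice were lower, by -2.47 ± 0.88, and the call was lost without ligatured mouse 1 (-1.81) and was not made by edgeR. Selenbp2, a liver selenium-binding protein with a close paralog, measured 34.0, 19.2 and 13.8 CPM without and 1.65, 6.08 and 3.00 CPM with ligature. It was likewise lower in all, by -2.37 ± 0.89, and lost its call without unligatured mouse 1 (-2.03) or ligatured mouse 1 (-2.04). The remaining large falls were Angptl7 (-2.12), Gm49450 (-1.65) and Foxq1 (-1.53), called in 4, 2 and 4 of the 6 such fits. Gm49450 was listed at 0 in ligatured mouse 3 and lost its call with a pseudocount of 5 and with the hepatocyte covariate. With that covariate its difference was still -1.64.

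Transcripts of the mitochondrial genome and small structural RNAs leaned lower as well. Both groups of genes were formed after their values were seen. All 12 mitochondrially encoded protein genes tested were negative and 5 were lower DEGs, against 0.547% of all genes (median -0.54, -0.71 to -0.37 with 1 mouse left out). The list's sum, led by mt-Co1, overlapped between the groups, at 20224, 27087 and 29617 CPM without and 16370.1, 22297 and 20099 CPM with ligature. mt-Nd3, a subunit of complex I, measured 669, 1024 and 925 CPM without and 400.3, 601 and 544 CPM with ligature. Each ligatured mouse lay lower, and the difference of -0.76 ± 0.24 was called in all 6 fits with 1 mouse left out. The nuclear genes of oxidative phosphorylation had the median of -0.08 given above. The mitochondrial ribosomal RNA mt-Rnr2 measured 6820.1, 6669 and 7571 CPM without and 4376, 4825 and 4910.1 CPM with ligature, without overlap, but its difference of -0.58 ± 0.31 was not a DEG. That difference ranged over -0.61 to -0.52 with 1 mouse left out at a time. Of 19 small non-coding RNAs tested, 17 were negative, 9 lay lower in all ligatured mice and 2 were lower DEGs (median -0.43). The shares of such genes among all tested were 3.44% and 0.547%. The mean log2 value of these RNAs was lower in every ligatured mouse.

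Gm24105, a small RNA gene, measured 41.6, 47.7 and 43.9 CPM without and 17.0, 18.5 and 19.0 CPM with ligature. All ligatured mice lay far below all unligatured mice. Its difference of -1.24 ± 0.32 was called in all 6 fits with 1 mouse left out. The most abundant entry of the table, the gene ID ENSMUSG00000118841, had no symbol or position in the annotation used and held the same values as ENSMUSG00000118866. It measured 43789.7, 50029 and 37864 CPM without and 23845, 24198 and 25239.9 CPM with ligature. All ligatured mice were lower, but the difference of -0.84 ± 0.52 was not a DEG. It ranged over -0.94 to -0.74 with 1 mouse left out at a time. The libraries were made after depletion of ribosomal RNA, and how far that step or the lower depth of the ligatured libraries took part in these values was not tested.

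The remaining lists held no DEG. Medians were -0.40 (-0.72 to -0.11 with 1 mouse left out) for mesothelial markers, of which 15 of 16 were negative, and -0.19 (-0.29 to -0.06) for smooth muscle, whose mean log2 value was lower in every ligatured mouse. The summed smooth muscle level, led by Synpo2, overlapped instead, at 1014, 902 and 1057 CPM without and 1543, 1114 and 940.5 CPM with ligature. The summed mesothelial level, led by Efemp1, was 2205, 1534 and 2959 CPM without and 1437, 1181 and 3028 CPM with ligature, with overlap. They were 0.00 for circadian clock genes, 0.23 for glucocorticoid targets and 0.04 for hypoxia and glycolysis. Marker lists of tissues outside the fat pad had few genes tested: exocrine pancreas 2 (median -0.08), germ cell 2 (0.26), skeletal muscle 6 (-0.04), neuron 5 (-0.04), Schwann cell 5 (0.07), keratinocyte 4 (-0.19) and intestinal epithelium 3 (-0.05). The plot of list medians gives the range of every list with each mouse left out, and many of the small medians cross 0.

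**Figure D4:**
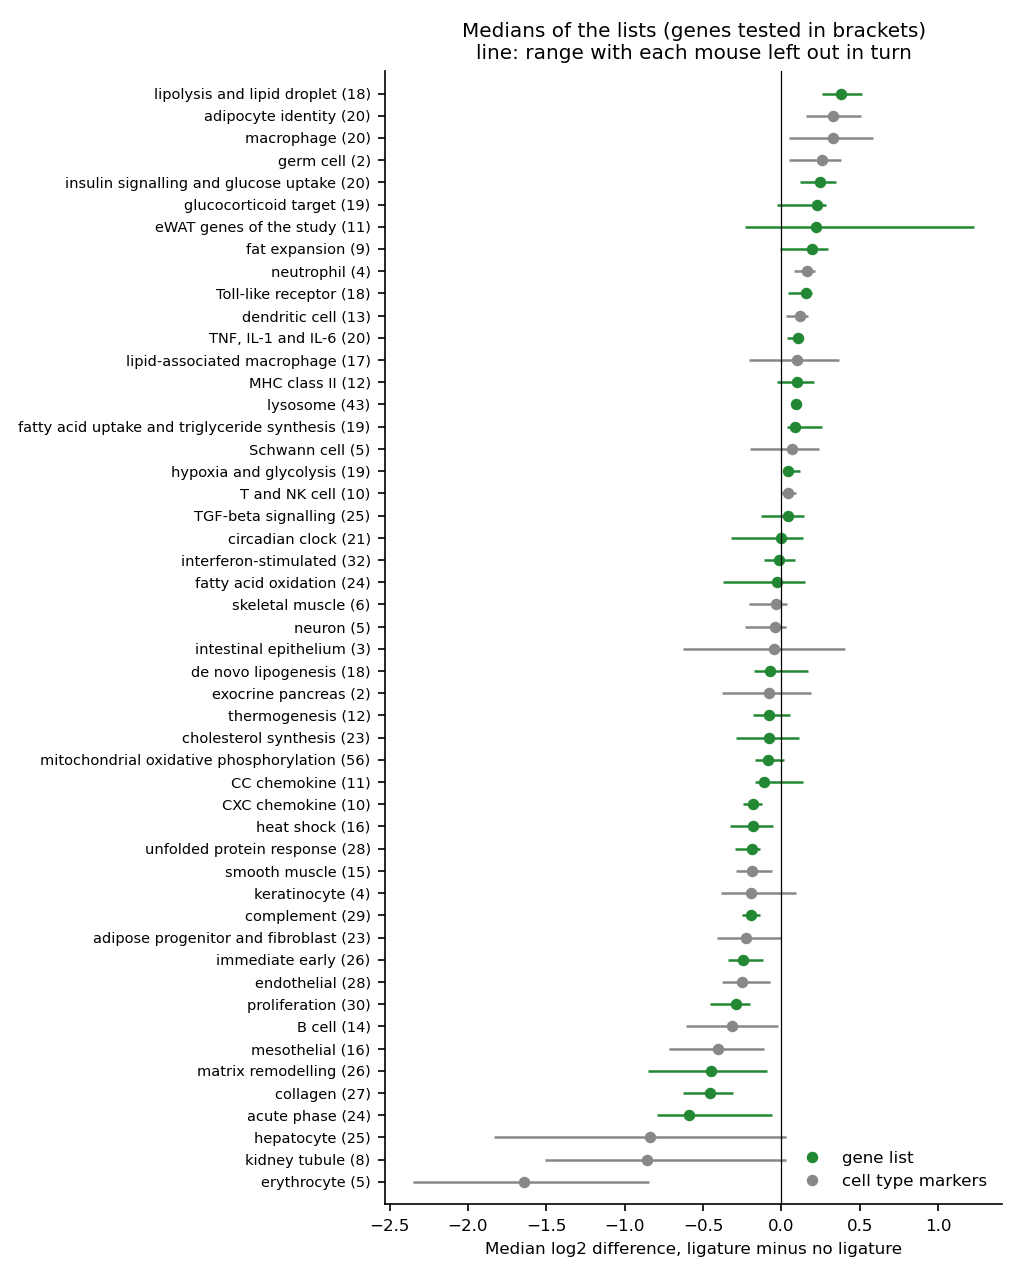
Points are the median log2 difference, ligature minus no ligature, of each gene list (green) and each list of cell type markers (grey), with the number of genes tested in brackets. Lines span the medians with each mouse left out in turn. The hepatocyte line runs from -1.83 to 0.03, and the collagen line stays below 0.

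The same contrast was then set beside the ligature contrasts of 3 other pairs of groups, which use their own unligatured mice. The ligature contrasts of WT mice fed ND or the 60% HFD were not run. In WT mice fed the 40% HFD the same criteria gave 620 higher (4.08%) and 873 lower DEGs (5.75%). In CCL19-KI mice fed ND they gave 750 (4.94%) and 1070 (7.05%), and in CCL19-KI mice fed the 60% HFD 1301 (8.57%) and 1131 (7.45%). Genes with an adjusted p under 0.05 in limma numbered 0 (0%), 11 (0.0724%) and 551 (3.63%) in that order. edgeR gave 1, 72 and 1309 genes after adjustment. For the WT count of 0, limma gave 2530 genes at an unadjusted p under 0.05.

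Tested directly, the ligature effect in CCL19-KI mice fed the 40% HFD differed from that in WT mice on the same diet in 0 genes (0%) after adjustment in limma and 0 in edgeR. Unadjusted, 635 and 688 genes had a p under 0.05. Against CCL19-KI mice fed ND, 0 genes (0%) passed in limma and 0 in edgeR, with 780 and 1032 genes unadjusted. Against CCL19-KI mice fed the 60% HFD, 1 gene (0.00659%), Cnbd2, passed in limma and 1 in edgeR, with 1774 and 2301 genes unadjusted. Sample quality weights gave 6387 genes against ND and 2164 against the 60% HFD, and gene-by-gene weights 4042 and 227, while both gave 0 against WT. Cnbd2 itself measured 2.00, 2.27 and 3.14 CPM without and 3.39, 2.83 and 1.97 CPM with ligature in the mice fed the 40% HFD, with overlap and a difference of 0.10 ± 0.26.

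The DEGs described above had been chosen in 1 of the contrasts, so their values in the others are given without a test of likeness. The 51 higher DEGs had a median difference of 0.72 here, 0.75 in WT mice fed the 40% HFD, 0.33 in CCL19-KI mice fed ND and 0.38 in CCL19-KI mice fed the 60% HFD. The 83 lower DEGs had medians of -0.89 here and -0.43, -0.15 and -0.14 in the same order. Ccl11 differed by 1.36 in WT mice fed the 40% HFD, 0.66 in CCL19-KI mice fed ND and 0.64 in CCL19-KI mice fed the 60% HFD. For Thbs1 the values were 1.46 in WT mice fed the 40% HFD, -1.15 in CCL19-KI mice fed ND and 0.80 in CCL19-KI mice fed the 60% HFD. Col3a1 gave -0.97 in WT mice fed the 40% HFD, 0.23 in CCL19-KI mice fed ND and 0.00 in CCL19-KI mice fed the 60% HFD. Ccn2 gave -0.69 in WT mice fed the 40% HFD, 0.05 in CCL19-KI mice fed ND and -1.04 in CCL19-KI mice fed the 60% HFD. Mup7 gave -2.74 in WT mice fed the 40% HFD, -7.10 in CCL19-KI mice fed ND and 4.86 in CCL19-KI mice fed the 60% HFD, and the hepatocyte list moved with it, at medians of -2.28, -5.38 and 4.68 in that order. What part this liver signal had in the counts of the other contrasts was not tested.

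**Figure D5:**
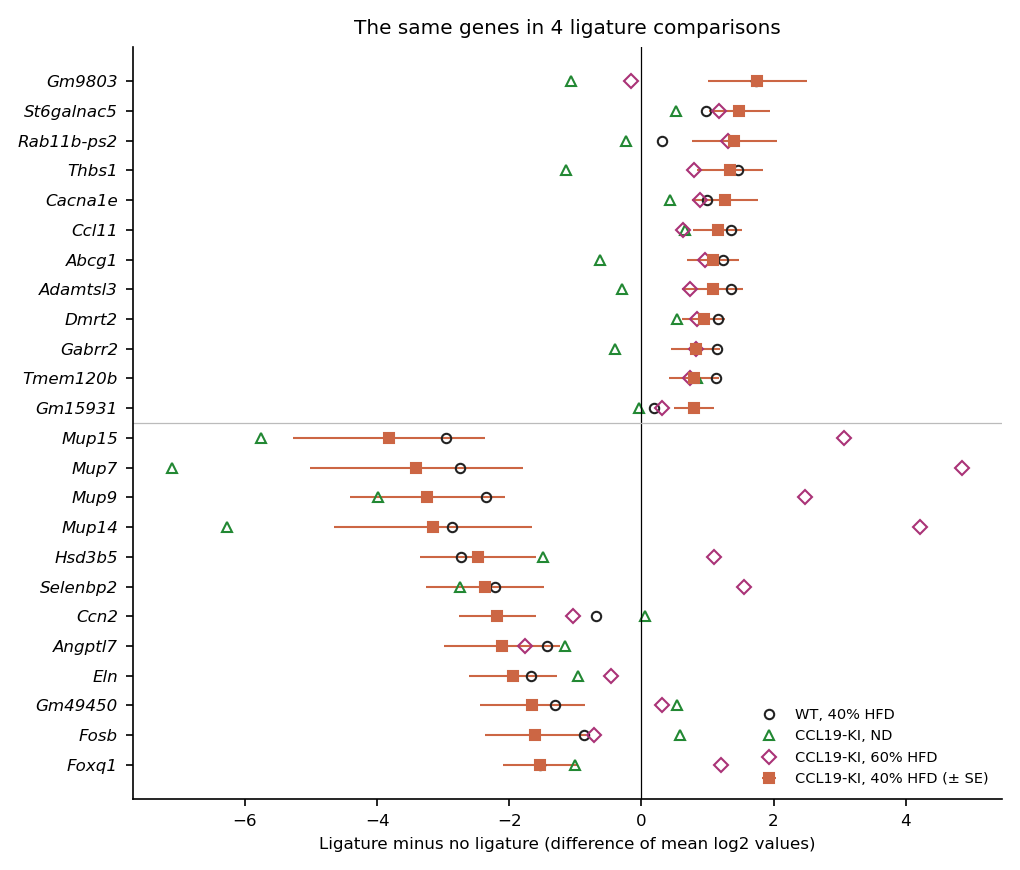
Squares with bars are the log2 difference ± SE of the 12 largest rises and 12 largest falls in CCL19-KI mice fed the 40% HFD. The SE is that of the fit of all 12 groups. Open symbols are the same genes in WT mice fed the 40% HFD (circles), CCL19-KI mice fed ND (triangles) and CCL19-KI mice fed the 60% HFD (diamonds). The Mup genes span the widest range, with positive values in the 60% HFD group.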

How the data were processed

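RNA-seq of eWAT gave 36 libraries in 12 groups of 3 mice. The authors trimmed reads with Trimmomatic 0.38, aligned them to mouse transcripts with Bowtie2 within RSEM 1.3.0 and deposited gene-level normalized CPM from edgeR. The signal values were normalized by the authors before they were deposited. Every value (100%, tolerance 0.01) was a whole multiple of 1 read, which gave reads per gene. The study's methods and its processing notes name different genome builds, and symbols and positions here come from GENCODE M21 (GRCm38), which held 24634 of 24750 gene IDs. Whether counting used strand is not given in the sources used here.

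Genes with at least 1 CPM in at least 3 of the 6 libraries were tested with limma 3.58.1 (R 4.3.3) on log2(CPM + 1), in 1 fit of all 12 groups with an intensity trend. Folds on this scale understate changes of low genes. DEGs had an unadjusted p no higher than 0.05 combined with a ratio ≥ 1.5 or ≤ 0.67, and p-values were adjusted by Benjamini and Hochberg over 15185 genes. edgeR 4.0.16 on the recovered reads called 46 higher and 98 lower DEGs. An exact two-sided permutation test of 3 against 3 mice cannot go below 0.1 and was not used. The fits were tested on simulated data, but the outcome is not reported here.

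Named genes were the 12 largest rises and falls among DEGs with separate groups, Ccl19 and Adipoq, DEGs of 51 gene lists and the study's eWAT genes; 1 gene that this rule names is not reported here. The members and lists were chosen with earlier results of these data known. Further genes, among them Fhl2, Lmcd1, Phlda1 and Txnip, were chosen after their values were seen. Alternatives changed the pseudocount, filter, scaling, tool, samples fitted, weights, covariate and ratio, added a replicate block, and left out each mouse in turn. Figures used matplotlib 3.10.9.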

Additional observations from a re-analysis of the deposited data

Results flagged for a closer look

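Cnbd2, which encodes a protein with a cyclic nucleotide-binding domain (chr2:156312299-156375638, plus strand, GRCm38), was flagged because its ligature effect differed between the 40% and 60% HFD in CCL19-KI mice by a direct test. Under the 40% HFD it measured 2.00, 2.27 and 3.14 CPM without and 3.39, 2.83 and 1.97 CPM with ligature, with overlap. Under the 60% HFD it measured 19.9, 11.0 and 28.9 CPM without and 3.29, 4.16 and 2.68 CPM with ligature, where all ligatured mice were lower. The log2 effects were 0.10 and -2.18, and their difference was 2.27 ± 0.37 (adjusted p 0.0265, limma). Every unligatured mouse fed the 60% HFD stood above the other values given here. The adjusted call was lost with a pseudocount of 0.1, with no filter, with the hepatocyte covariate, and without unligatured mouse 1 or 2 or ligatured mouse 1 or 2 of the 40% HFD. The cause was not tested.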

How the results depend on the processing

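The counts of higher and lower DEGs (51 and 83) depended most on the weights given to libraries. Sample quality weights gave 429 and 1004, with 2138 genes at an adjusted p under 0.05, and differences from CCL19-KI mice fed ND and 60% HFD in 6387 and 2164 genes. That fit gave 1 library almost no weight (2.72e-06), and limma warned that its convergence tolerance was not reached. The library was unligatured WT mouse 3 fed the 40% HFD, which is not among the 6 compared. Its gene-by-gene weight was 4.55. Gene-by-gene weights, added after the data were seen, gave 298 and 626, with 222 adjusted, and differences in 4042 and 227 genes. No other alternative gave any adjusted gene within the comparison. A pseudocount of 5 gave 19 and 40 DEGs, a mean of at least 5 gave 28 and 43, quantile normalization gave 90 higher, the fit of the 6 libraries 153 lower, and a ratio of 2 gave 10 and 34. The difference from the 60% HFD numbered 0 genes with a pseudocount of 0.1, no filter, a mean of at least 5 or the hepatocyte covariate, 2 with a pseudocount of 5, and 4 with quantile normalization. Without the filter, 1 gene differed from ND.

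With replicate numbers as a replicate block, DEGs numbered 53 and 78, 37 of the 40 named DEGs stayed called (not Mup14, Fosb or Orm3), Thbs2 gained a call, and 2 genes differed from the 60% HFD. Deviations from the group means correlated by 0.31, 0.71 and -0.07 for numbers 1, 2 and 3, and 3 of 6 samples correlated best with their own number. With 3 mice a group, these values cannot settle whether the numbers pair the mice.

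Leaving out 1 mouse at a time gave 25 to 114 higher and 43 to 148 lower DEGs, and 0 to 1 genes that differed from the 60% HFD. Of 40 DEGs followed, some named by the rules and others chosen after their values were seen, 21 to 31 stayed called. edgeR called 29 of them. Log2 differences whose sign turned ranged as follows: Ccl19 -0.24 to 0.44, Adipoq -0.01 to 0.55, Spp1 -0.69 to 1.23, Gpnmb -0.19 to 1.67, Atp6v0d2 -0.23 to 1.55, Cyp2b9 -0.22 to 2.47, Cyp2a22 -0.46 to 1.23, Acot3 -0.58 to 1.64, Kap -2.50 to 0.40, Srp54b -0.02 to 0.22, Cnbd2 -0.03 to 0.25. Values of turned sign between these ends were -0.10 (Ccl19), -0.47 (Spp1), -0.16 (Cyp2b9), and -0.05 and -0.44 (Cyp2a22). Spp1 was also -0.03 with sample quality weights and -0.01 with gene-by-gene weights. The cause was not tested. With 3 mice a group, small effects could not be resolved. The ligatured libraries were shallower, liver and other tissue RNA varied between mice, and cell types were not separated.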

Other observations

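Genes of the gamma protocadherin cluster, cell adhesion proteins made from overlapping transcripts that share their last exons, leaned higher in the ligatured mice. This group was formed after its values were seen. Of 19 tested, 15 were positive and 3 were higher DEGs, Pcdhga6, Pcdhga7 and Pcdhgb1, against 0.336% of all genes tested (median 0.24, 0.08 to 0.35 with 1 mouse left out). Their sum was 82.2, 63.1 and 70.8 CPM without and 93.0, 65.5 and 125 CPM with ligature, with overlap and with ligatured mouse 3 highest. The overlap makes the value of each gene uncertain. Genes of the replication-dependent histone clusters, also grouped afterwards, had a median of -0.06 over 54 tested.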
